A study of Homo sapiens with 12 samples.

Results

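Expression in MDA-MB231 cells was compared between 24 h with manassantin and 24 h with rotenone, on 3 arrays per compound which are 6 of the 12 arrays of the series, the others being DMSO and digoxin arrays. The arrays were chosen by their titles, and the compounds were set against each other directly, without the 3 DMSO arrays. MDA-MB-231 is an established human line of triple-negative breast cancer, so every array comes from a single line, grown in full DMEM medium with serum. The design text calls the compound Manassantin A and the titles Manassantin. Neither the doses nor the oxygen level are given in the sources used here, and no label ties the 3 arrays of a compound to 3 cultures. The p-values therefore reflect how far these arrays spread, which may be technical. Each of 11963 genes was represented by its brightest probe set with exactly 1 gene symbol, and values are log2 expression, on which a difference of 1 is 2-fold. Differences are manassantin minus rotenone, so a positive difference means a higher level with manassantin. DMSO values are given beside the main genes as the vehicle level and entered no test.

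Manassantins are plant lignans, and rotenone is a plant isoflavonoid that blocks respiratory complex I and also binds tubulin. Inhibition of complex I has been described for manassantins too, and rotenone is the standard compound for that block, so the comparison asks in which transcripts a manassantin-treated culture differs from a rotenone-treated one. Of the 682 genes that separated the compounds in the test below, 39 higher and 1 lower with manassantin were in the list of DNA replication. Another 1 higher and 28 lower were in that of mitosis, so most lay outside these lists. Genes of the G1/S transition and DNA replication are driven by E2F factors and peak when DNA is copied. Genes of G2 and mitosis are repressed earlier in the cycle through CHR elements in their promoters and peak at division. CCAAT boxes are also common in these promoters. Immediate early genes such as EGR1 and FOS are switched on within minutes of a stimulus, many of them through CArG boxes bound by serum response factor.

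Promoter windows of RefSeq (build GRCh38.p14, the 250 bases before the annotated start, 5′ to 3′) are shown for MCM6, PLK1 and EGR1, 1 gene for each of these groups, because these lists gave many calls in 1 direction. The MCM6 window (chr2:135876444-135876693, minus strand) has E2F words in capitals, which lie in 2 blocks and overlap on both strands. The PLK1 window (chr16:23678639-23678888, plus strand) has a CCAAT box and the CHR word TTTGAA in capitals. The EGR1 window (chr5:138465229-138465478, plus strand) has 2 CArG boxes in capitals.
MCM6: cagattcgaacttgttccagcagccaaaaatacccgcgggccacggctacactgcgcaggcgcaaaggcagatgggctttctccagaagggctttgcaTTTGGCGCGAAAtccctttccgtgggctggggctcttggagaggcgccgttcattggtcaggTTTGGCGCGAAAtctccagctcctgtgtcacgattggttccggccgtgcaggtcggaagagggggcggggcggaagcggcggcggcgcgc
PLK1: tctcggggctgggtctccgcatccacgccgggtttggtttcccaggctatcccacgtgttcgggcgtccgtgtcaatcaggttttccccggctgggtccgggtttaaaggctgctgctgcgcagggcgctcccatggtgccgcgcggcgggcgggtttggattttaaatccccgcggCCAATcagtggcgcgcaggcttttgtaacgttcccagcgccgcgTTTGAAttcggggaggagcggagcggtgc
EGR1: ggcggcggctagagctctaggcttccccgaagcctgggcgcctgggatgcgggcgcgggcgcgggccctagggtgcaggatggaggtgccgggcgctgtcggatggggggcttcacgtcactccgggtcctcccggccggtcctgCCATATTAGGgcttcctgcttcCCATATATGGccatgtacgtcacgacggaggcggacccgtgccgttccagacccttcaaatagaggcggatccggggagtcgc

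The E2F words searched, on both strands and were TTTCCCGC, TTTGGCGC, TTTCGCGC and TTTGCCGC. They were found in 391 of 9563 measured genes with a window, 4.09%, and in 18 of 57 replication genes, 31.6%. TTTGAA was present in 9.72% of all windows and in 34 of 67 windows of mitotic genes, 50.7%, and CCAAT in 35.6% of all windows and 73.1% of the mitotic ones. CArG boxes were present in 1.21% of all windows and in 1 of 31 windows of immediate early genes, EGR1. The cyclic AMP element TGACGTCA was found in 2.79% of all windows and in 2 of the 31 immediate early ones. TTTGGCGC and TTTCGCGC overlap on the opposite strands of the MCM6 blocks. These are matches of letters in short windows, which describe the promoters and not binding.

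Of 11963 genes, 682 (5.7%) were called different by limma at an adjusted p under 0.05, 366 (3.06%) higher and 316 (2.64%) lower with manassantin. An unadjusted limma p under 0.05 was reached by 2788 of the 11963 genes. This is the share to set beside the unadjusted counts of the lists below. The larger differences ran downward: 6 called genes were at least 2-fold lower and 0 at least 2-fold higher, and at 1.5-fold or more there were 42 and 16. The median absolute difference of a called gene was 0.33 on the log2 scale, a 1.25-fold change. For 29.3% of genes the 3 arrays of one compound all lay above the 3 of the other (16.1% higher, 13.1% lower with manassantin). With only 3 arrays a compound the number of calls rested on each of them. Calls fell to 274, 450 and 177 on dropping the first, second and last manassantin array in turn, and to 150, 112 and 92 on dropping the rotenone arrays in that order. Even so, 80 genes were called in all 6 of these fits and all 682 kept their direction in each. For every called gene the 3 arrays of one compound did not overlap the 3 of the other.

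Markers of the labelled line were high in both groups. Of 12 markers of the basal, mesenchymal state of this line 11 stood above the 40th percentile of gene levels and 0 were called, with VIM at 13.23, CAV1 at 12.57, AXL at 12.51 and SPARC, the exception, at 3.89. Of 7 leukocyte and 5 endothelial markers 0 reached that percentile, with PTPRC at 2.94, and of 6 fibroblast markers COL1A1 did, at 6.44. The fibroblast marker PDGFRB, below the percentile at 5.58, was called higher with manassantin by 0.23. Luminal markers were mixed: CDH1 (3.57), PGR (2.44) and FOXA1 (3.26) were low while 8 of 12 passed the percentile. Among these were ESR1 (6.16), ERBB2 (8.12), EPCAM (7.92) and GATA3 (7.89), and KRT19, which was higher with manassantin by 0.30. On the same arrays the 3′ minus 5′ difference of the spiked dap control, which grows with 3′ bias of the labelled target, was 2.52, 3.22 and 3.47 with manassantin and 2.45, 2.87 and 2.74 with rotenone (difference 0.386, two-sided exact permutation test, p = 0.3, where 3 against 3 cannot go below 0.1). The 18S rRNA control was 9.62, 9.49 and 10.38 with manassantin against 10.11, 10.08 and 9.83 with rotenone (difference -0.177, exact p = 0.6). As a covariate it left 202 calls, 92 higher and 110 lower, of which the replication list held 17 higher and the mitotic list 19 lower. All 682 genes kept their direction there and the median ratio of their differences to the main ones was 0.994.

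**Figure D1:**
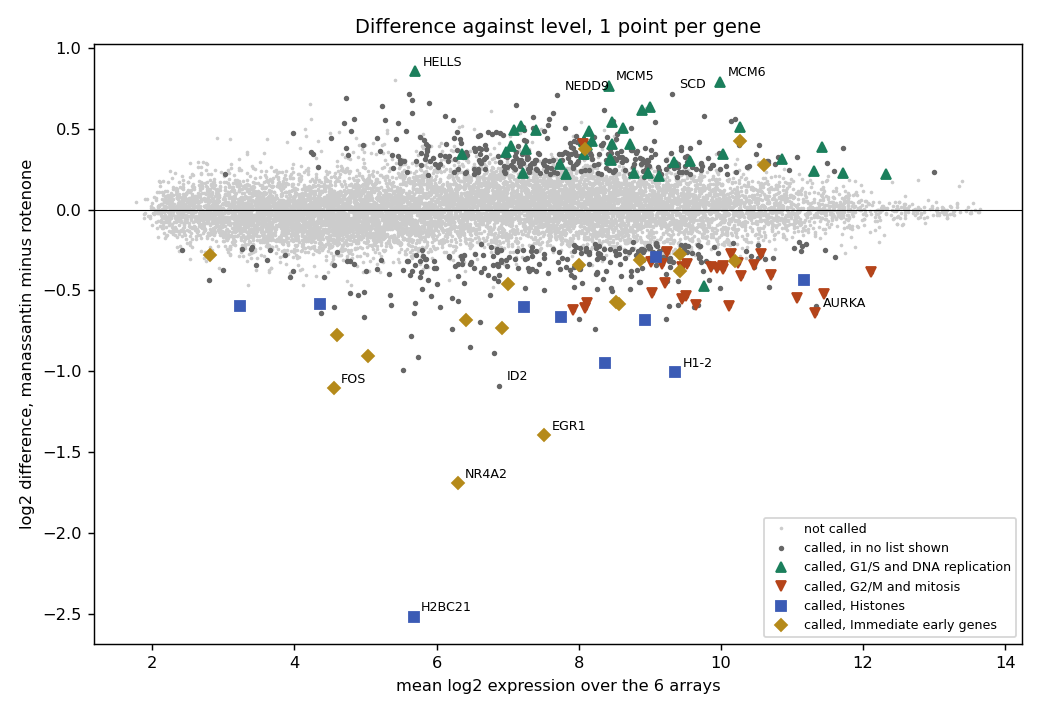
Each point is 1 of 11963 genes, with its mean log2 expression over the 6 arrays on the x axis and the log2 difference, manassantin minus rotenone, on the y axis; called genes of 4 lists are marked by colour and shape. Called replication genes other than DBF4 (-0.47) lie above 0, up to 0.86 for HELLS, and histone, immediate early and mitotic genes mostly below, down to -2.52 for H2BC21.

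Genes of the G1/S transition and DNA replication were higher with manassantin. Of 68 measured members of the list 39 were called higher and 1 lower, against 3.06% and 2.64% of all genes, with a median difference of 0.26 where the median of all genes was 0.000694. Averaged over the list and set against each gene's DMSO mean, the manassantin arrays stood at -0.03, -0.02 and -0.03 and the rotenone arrays at -0.32, -0.30 and -0.28. The manassantin arrays thus lay within the range of the DMSO arrays (-0.03, 0.00 and 0.03) and the rotenone arrays all below it. In bulk RNA a change in the share of cells in a phase and a change in RNA per cell cannot be told apart. Without 1 array at a time 11 to 28 members were called higher, with fewest without rotenone replicate 1 (11), and each of the 6 omissions but that of manassantin replicate 2 (28) moved the count by over 1.5 times, to 25, 15, 11, 12 and 12.

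The 6 subunits of the MCM2-7 helicase, which unwinds DNA at the fork, were all called higher. MCM6, whose window carries the E2F words shown above, stood at 10.41, 10.33 and 10.42 with manassantin, at 9.63, 9.59 and 9.56 with rotenone and at 10.44, 10.47 and 10.54 with DMSO. The manassantin and rotenone arrays did not overlap, and the difference was 0.79 ± 0.051 (SE, n = 3 arrays per group, limma adjusted p = 0.00125). MCM5 read 8.84, 8.81 and 8.77 with manassantin and 8.10, 8.004 and 8.02 with rotenone, 0.76 ± 0.052 (SE, n = 3 arrays per group, limma adjusted p = 0.00125), and its other probe set was called in the same direction. MCM3 differed by 0.51 ± 0.056, MCM2 by 0.504 ± 0.084, MCM4 by 0.40 ± 0.05 and MCM7 by 0.30 ± 0.049, with adjusted p-values of 0.00599, 0.0206, 0.00877 and 0.0204. MCM6, MCM5, MCM3 and MCM4 were called in each of the 6 fits that left out 1 array.

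Helicase partners followed. GINS2, a subunit of the GINS complex that activates the helicase, stood at 8.72, 8.83 and 8.67 with manassantin and 8.24, 8.22 and 8.12 with rotenone (0.54 ± 0.061). CDC45, which joins GINS and MCM in the active helicase, was higher by 0.52, the fork protein WDHD1 by 0.36 and TIMELESS by 0.28 (adjusted p = 0.0507 with the replicate number as a block). All 11 members of this subgroup had positive differences and 5 were called. Among 11 origin factors the licensing protein gene CDC6 (0.42) and ORC1, the cycling subunit of the origin recognition complex (0.35), were called higher. DBF4, the activating subunit of the kinase that fires licensed origins, was the 1 member of the whole list called the other way: it stood at 9.56, 9.42 and 9.60 with manassantin and 10.02, 9.91 and 10.07 with rotenone, a difference of -0.47 ± 0.069 (SE, n = 3 arrays per group, limma adjusted p = 0.0149). The kinase subunit itself, CDC7, stood at 0.13 (adjusted p = 0.308).

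Of 21 genes of polymerases, clamp and clamp loader 14 were higher and 0 lower, and all 21 differences were positive. PRIM1, the catalytic subunit of primase, stood at 9.10, 9.22 and 9.26 with manassantin against 8.62, 8.55 and 8.58 with rotenone and 9.05, 9.24 and 9.17 with DMSO, 0.61 ± 0.058 (SE, n = 3 arrays per group, limma adjusted p = 0.0042). The primase-bound polymerase POLA1 was higher by 0.49, the flap nuclease DNA2 by 0.49, the ligase LIG1 by 0.42, the polymerase delta subunit POLD3 by 0.42 and the clamp loader RFC2 by 0.41. In nucleotide supply 5 of 6 genes were called. The nucleoside transporter SLC29A1 was higher by 0.31, while the differences of RRM1 (0.24), DUT (0.22), thymidylate synthase TYMS (0.22) and thymidine kinase TK1 (0.21) were past the threshold without the replicate block and at adjusted p = 0.05, 0.0507, 0.0531 and 0.0531 with it.

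HELLS, a chromatin remodeller needed for DNA methylation, had the largest positive difference of all called genes although it was dim. It read 6.01, 6.04 and 6.33 with manassantin, 5.21, 5.35 and 5.26 with rotenone and 6.02, 5.92 and 5.92 with DMSO, 0.86 ± 0.09 (SE, n = 3 arrays per group, limma adjusted p = 0.00518). CHAF1A, of the complex that places histones on new DNA, was higher by 0.31 and the histone chaperone ASF1B by 0.29, whereas the maintenance methyltransferase DNMT1 stood at 0.0077 (95% interval -0.11 to 0.12). Upstream in the pathway, E2F1, an activating E2F, stood at 7.54, 7.72 and 7.69 with manassantin and 7.02, 7.17 and 7.29 with rotenone, 0.49 ± 0.084. The cyclin E genes CCNE2 (0.64 ± 0.084) and CCNE1 (0.38 ± 0.058), partners of CDK2, were also higher. CCNE2 arrays with manassantin (9.30, 9.34 and 9.31) lay just below those with DMSO (9.40, 9.45 and 9.54) and well above those with rotenone (8.78, 8.49 and 8.77). RBL1, the pocket protein p107, which binds E2F and is itself an E2F target, was higher by 0.56 ± 0.085, and E2F8, a repressor E2F, by 0.34. Of 8 measured members of the subgroup of E2F factors and G1/S cyclins 4 were called higher and 0 lower. E2F3 stood at -0.20 with arrays that did not overlap, but was not called (limma adjusted p = 0.132). E2F2 (0.02, dim), CDC25A (0.04) and CDK2 (0.03) were not called either.

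DNA repair genes shared the direction, with 8 of 21 called higher and 0 lower, against 3.06% and 2.64% of all genes, and a median of 0.19. UNG, the uracil-DNA glycosylase, stood at 9.34, 9.32 and 9.36 with manassantin, 8.70, 8.89 and 8.79 with rotenone and 9.56, 9.60 and 9.61 with DMSO, so the manassantin arrays lay between the other groups, with a difference of 0.54 ± 0.06 (SE, n = 3 arrays per group, limma adjusted p = 0.00599). The exonuclease gene EXO1 was higher by 0.48, BRCA1 by 0.33 and the mismatch repair gene MSH6 by 0.32. For BRCA1 the mean of its 2 probe sets did not pass (adjusted p = 0.0582), nor for MSH6 that of its 3 (adjusted p = 0.226). Without 1 array at a time 1 to 6 of the list were called higher, with 4, 6, 3, 2, 2 and 1 in the order of manassantin and then rotenone replicates.

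**Figure D2:**
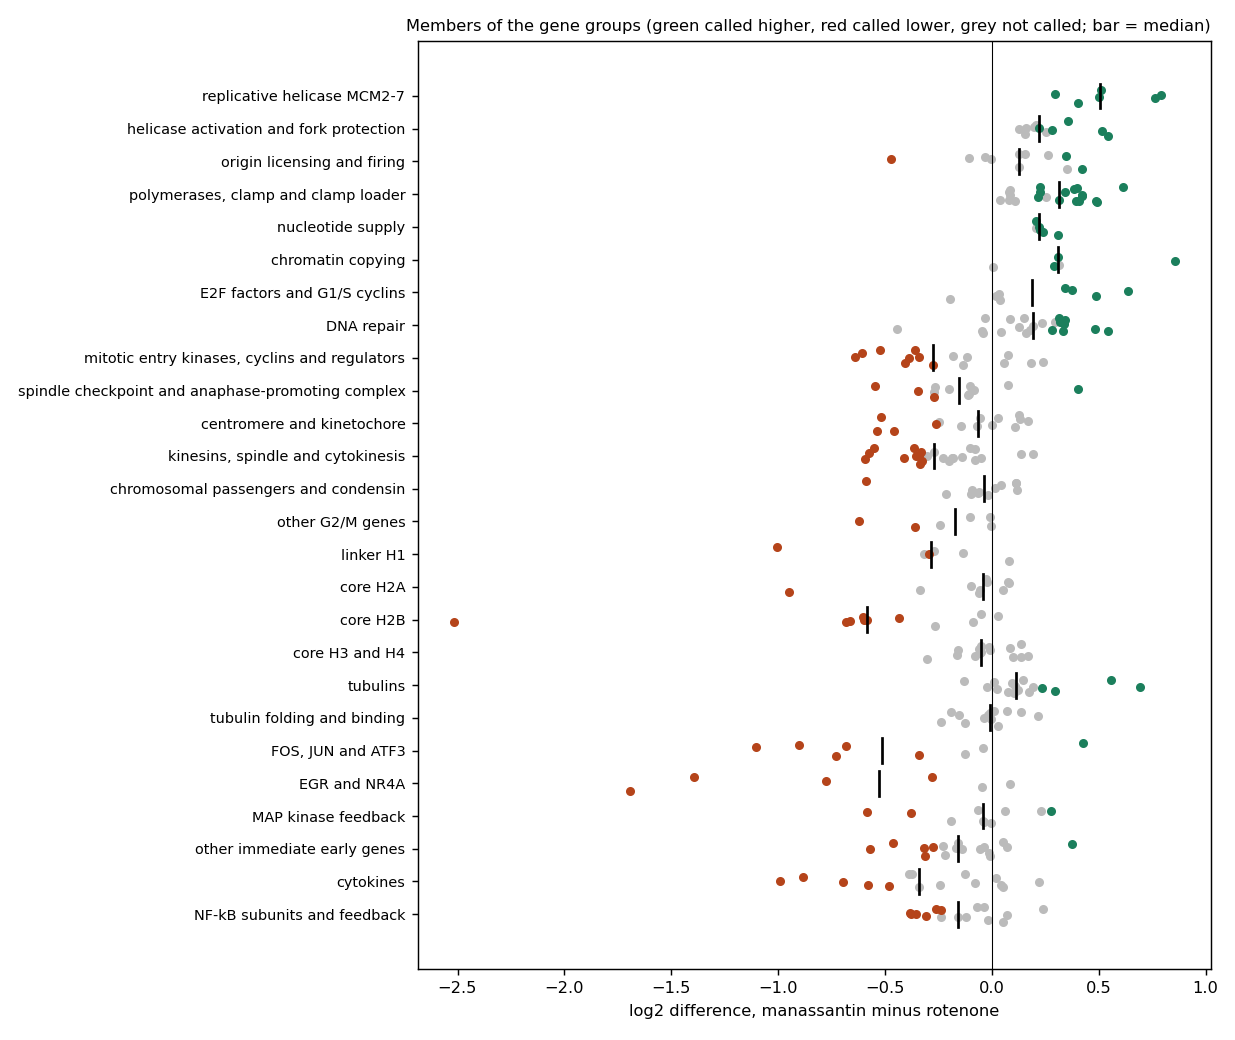
Each point is a gene of a named group, placed by its log2 difference, manassantin minus rotenone, on the x axis; vertical jitter has no meaning, green points were called higher, red lower, grey not called, and black bars are group medians. The MCM2-7 genes all lie above 0, the kinesin and entry-kinase groups mostly below, and the core H2B genes around a median of -0.585.

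Mitotic genes ran the other way. Of 82 measured genes of G2/M and mitosis 28 were called lower with manassantin and 1 higher, against 2.64% and 3.06% of all genes, and the median difference was -0.16. Set against the DMSO mean, the list averaged -0.09, -0.14 and -0.09 on the manassantin arrays and 0.09, 0.04 and 0.10 on the rotenone arrays, with the DMSO arrays at -0.03, 0.02 and 0.01. So the list means of the compounds lay on opposite sides of the vehicle, for which the same DMSO arrays served both. This did not hold in each subgroup. Passengers and condensins lay below DMSO with both compounds (medians -0.0884 with manassantin and -0.108 with rotenone). With rotenone, centromere genes stood at 0.0045 and other G2/M genes at 0.0338. The entry, checkpoint and kinesin subgroups stood at 0.166, 0.124 and 0.122 there. Without 1 array at a time 9 to 21 of the list were called lower. Dropping rotenone replicate 1, 2 or 3 gave 12, 13 and 9, and dropping the manassantin arrays in the same order 19, 21 and 19.

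Entry into mitosis is driven by cyclin B with CDK1, helped by the kinases PLK1 and AURKA. AURKA stood at 10.97, 11.03 and 11.03 with manassantin, 11.60, 11.72 and 11.62 with rotenone and 11.16, 11.19 and 11.17 with DMSO, -0.64 ± 0.054 (SE, n = 3 arrays per group, limma adjusted p = 0.00338), and both of its other probe sets were called in the same direction. PLK1, whose window with its CHR and CCAAT words is printed above, read 7.76, 7.91 and 7.67 with manassantin and 8.37, 8.43 and 8.37 with rotenone, -0.61 ± 0.069. CCNB1, cyclin B1, was at 11.25, 11.15 and 11.18 against 11.73, 11.71 and 11.70 (-0.52 ± 0.049), with DMSO at 11.34, 11.32 and 11.35. In each of these 3 genes the arrays of the compounds did not overlap. TPX2, the activator of AURKA at the spindle, differed by -0.40 and CKS2, a CDK1 subunit, by -0.39, while CDK1 itself, chosen after its values were seen, stood at 0.24 (adjusted p = 0.107), the opposite sign to its cyclin. CDK1 was called in the fit on all 12 arrays (adjusted p = 0.0396), with dim genes left out (0.039), with the trended robust prior (0.0105) and with the dap covariate (0.0338).

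At the spindle checkpoint, CDC20, the activator of the anaphase-promoting complex, stood at 10.74, 10.85 and 10.81 with manassantin and 10.84, 10.85 and 10.83 with DMSO but at 11.35, 11.38 and 11.31 with rotenone, -0.55 ± 0.052 (SE, n = 3 arrays per group, limma adjusted p = 0.00429). The checkpoint kinases BUB1 (-0.35) and BUB1B (-0.27) were lower too; for BUB1 none of its other 4 probe sets was called, and the mean of all 5 did not pass (adjusted p = 0.125). FBXO5, which inhibits that complex until mitosis and is expressed from G1/S, was the 1 member of the list called higher, by 0.41 ± 0.091 (adjusted p = 0.0477). Centromere genes were split, with 4 of 14 lower. HJURP, the chaperone that places CENPA, read 9.22, 9.28 and 9.22 against 9.72, 9.79 and 9.83 (-0.54 ± 0.052), and CENPA itself 8.75, 8.81 and 8.74 against 9.33, 9.27 and 9.24 (-0.52 ± 0.052). The motor CENPE differed by -0.46.

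Kinesins and cytokinesis genes had 10 of 23 members lower and 0 higher, with a median of -0.27. KIF20A, a motor of the central spindle, stood at 9.74, 9.81 and 9.89 with manassantin, 10.35, 10.48 and 10.40 with rotenone and 10.01, 10.04 and 10.04 with DMSO (-0.59 ± 0.061). KIF18A, which dampens chromosome movement, differed by -0.58, KIF14 by -0.55 and the spindle protein gene DLGAP5 by -0.41. CDCA8, a chromosomal passenger, was the 1 called gene of 12 passengers and condensins. Its arrays read 9.35, 9.34 and 9.36 against 9.96, 9.93 and 9.94, a difference of -0.59 ± 0.045 (SE, n = 3 arrays per group, limma adjusted p = 0.00215). TROAP, a spindle-associated protein, was at -0.62, while the proliferation marker MKI67 stood at -0.0035 (95% interval -0.16 to 0.15) and TOP2A at 0.11 (-0.08 to 0.31). The markers MKI67 and TOP2A were thus not called in either direction.

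**Figure D3:**
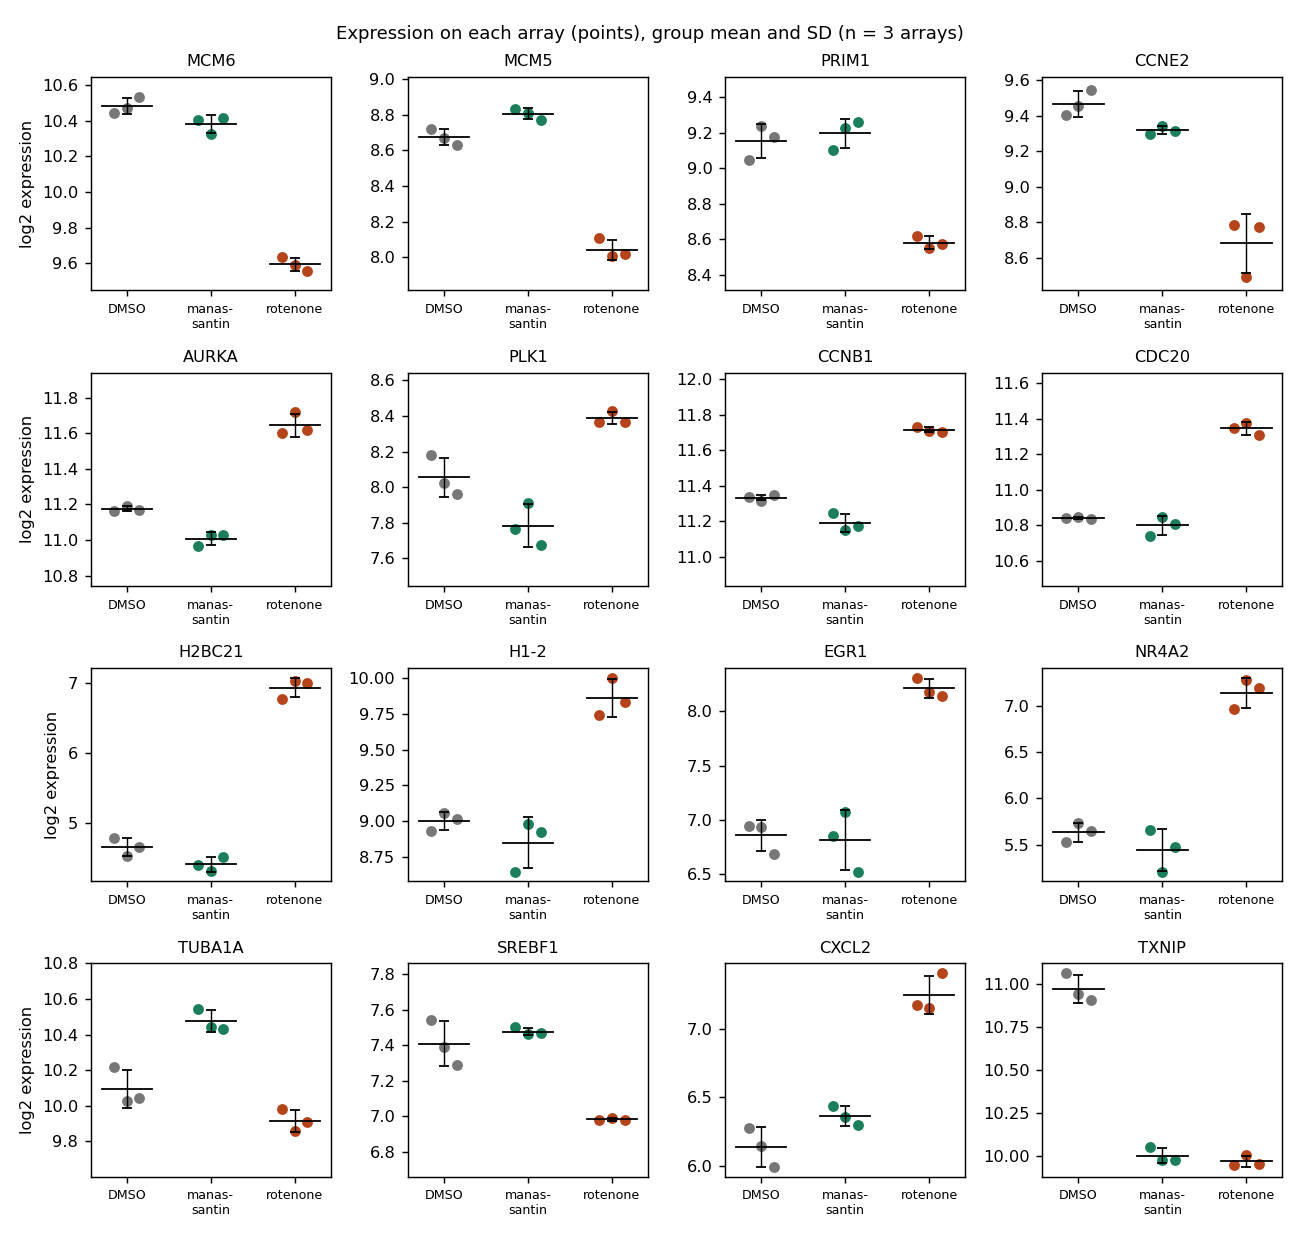
Points are single arrays, with group means (bars) and SD (whiskers, n = 3 arrays), as log2 expression on the y axis for 16 genes and the groups DMSO, manassantin and rotenone on the x axis; axes do not start at 0 and span at least 1.2. MCM6 reads 10.41, 10.33 and 10.42 with manassantin and 9.63, 9.59 and 9.56 with rotenone, and TXNIP lies near 10 with both compounds and near 11 with DMSO.

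Histone transcripts were lower with manassantin where they differed. Of 42 measured histone genes 10 were called lower and 0 higher, against 2.64% and 3.06% of all genes, with a list median of -0.068. The called genes were mainly of the H2B class, whose proteins sit in the nucleosome core, 7 of 11, with 2 of 6 linker histones and 1 of 10 H2A genes. Of 15 H3 and H4 genes 0 were called by limma (2 had an unadjusted p under 0.05). However, 13 of these 15 were dim, as were 7 of the 11 H2B genes and 29 of the 42 histone genes. The list's count was 9, 7, 9, 7, 5 and 5 on leaving out each manassantin and then each rotenone replicate. H2BC21 had the largest difference of all genes: 4.41, 4.32 and 4.53 with manassantin, 6.77, 7.03 and 6.9998 with rotenone and 4.79, 4.54 and 4.66 with DMSO, -2.52 ± 0.086 (SE, n = 3 arrays per group, limma adjusted p = 6.72e-05). It is dim, and whether its level with manassantin stands above background is not known from these values, so no fold is given. H1-2, a linker histone, stood at 8.65, 8.98 and 8.93 against 9.74, 10.001 and 9.83 (-1.01 ± 0.10), and H2AC6 at 7.91, 7.90 and 7.86 against 8.73, 8.91 and 8.87 (-0.95 ± 0.062). Both compounds' arrays were apart without overlap for each of these. H2BC5 (-0.68), H2BC6 (-0.66), H2BC9 (-0.60) and H2BC12 (-0.43) followed. Their sequences are nearly identical and probe sets can read several copies, so which H2B gene moved is uncertain.

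Immediate early genes were mostly lower with manassantin, with a median of -0.16. Of 41 measured, 16 were called lower and 3 higher, against 2.64% and 3.06% of all genes. The list averaged 0.06, 0.08 and 0.04 above the DMSO mean on the manassantin arrays and 0.31, 0.35 and 0.31 on the rotenone arrays. NR4A2, an orphan nuclear receptor, read 5.66, 5.21 and 5.47 with manassantin, 6.96, 7.27 and 7.19 with rotenone and 5.53, 5.73 and 5.65 with DMSO, -1.69 ± 0.13 (SE, n = 3 arrays per group, limma adjusted p = 0.00212), and both other probe sets were called alike. EGR1, a zinc-finger factor whose CArG boxes are shown above, stood at 6.85, 7.07 and 6.53 against 8.31, 8.18 and 8.14 (-1.40 ± 0.13), with DMSO at 6.95, 6.94 and 6.69. NR4A3 (-0.78) and EGR3 (-0.28), both dim, were lower, and NR4A1 stood at -0.04 (95% interval -0.19 to 0.10). So the manassantin arrays of EGR1 overlapped those of DMSO, and the rotenone arrays lay above both.

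Within the AP-1 family the members split by gene. FOS was lower at 4.01, 3.95 and 4.04 against 4.99, 5.19 and 5.12 with rotenone (-1.10 ± 0.064, dim), FOSB at 4.29, 4.80 and 4.67 against 5.46, 5.57 and 5.44 (-0.90 ± 0.12, dim) and JUNB by -0.68 ± 0.10. ATF3, a stress-induced partner, read 6.64, 6.57 and 6.45 with manassantin, 7.23, 7.33 and 7.28 with rotenone and 6.47, 6.62 and 6.43 with DMSO (-0.73 ± 0.063). JUND, another JUN family member, was higher, at 10.58, 10.45 and 10.41 against 10.14, 9.97 and 10.04 (0.43 ± 0.067), although the mean of its 3 probe sets did not pass (adjusted p = 0.065). JUN stood at -0.04 (95% interval -0.15 to 0.07) and FOSL1 at -0.13 (-0.27 to 0.02). Among the feedback phosphatases of MAP kinases DUSP1 was lower at -0.59 and DUSP5 at -0.38, while DUSP6, which acts on ERK, was higher at 0.28. SGK1 (8.25, 8.21 and 8.24 against 8.80, 8.75 and 8.87) and TRIB1 (-0.46) were lower, MYC was at -0.32 and KLF2, a zinc-finger factor, was higher at 0.38. Leaving out 1 array at a time gave 14, 13, 9, 9, 6 and 6 lower members of the list, in the order of manassantin and then rotenone replicates.

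Cytokine and NF-kB genes followed the immediate early genes, with a median of -0.24. Of 30 members 11 were lower and 0 higher, against 2.64% and 3.06% of all genes. CXCL2, a neutrophil chemokine, read 6.44, 6.36 and 6.30 with manassantin, 7.18, 7.16 and 7.41 with rotenone and 6.28, 6.14 and 5.99 with DMSO, -0.89 ± 0.08 (SE, n = 3 arrays per group, limma adjusted p = 0.00367). IL24 stood at 4.77, 5.24 and 5.08 against 5.82, 6.14 and 6.11 (-0.99 ± 0.13, dim), and here the manassantin arrays also lay above those with DMSO (4.49, 4.72 and 4.37). IL6 differed by -0.69 ± 0.096, CXCL8 by -0.48 ± 0.08 and CXCL3 by -0.58 (dim, adjusted p = 0.0516 with the replicate block). TNFAIP3, which dampens NF-kB, was lower at -0.38, as were the subunit NFKB1 (-0.36) and the inhibitor NFKBIE (-0.31). For NFKB1 the manassantin arrays (7.57, 7.68 and 7.66) lay below those with DMSO (7.97, 7.90 and 7.99), and those with rotenone (7.92, 8.07 and 7.99) within or just above them. Without rotenone replicate 2 or 3 the count was 1 each, and it was 5, 9, 3 and 4 without manassantin replicate 1, 2 or 3 or rotenone replicate 1.

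**Figure D4:**
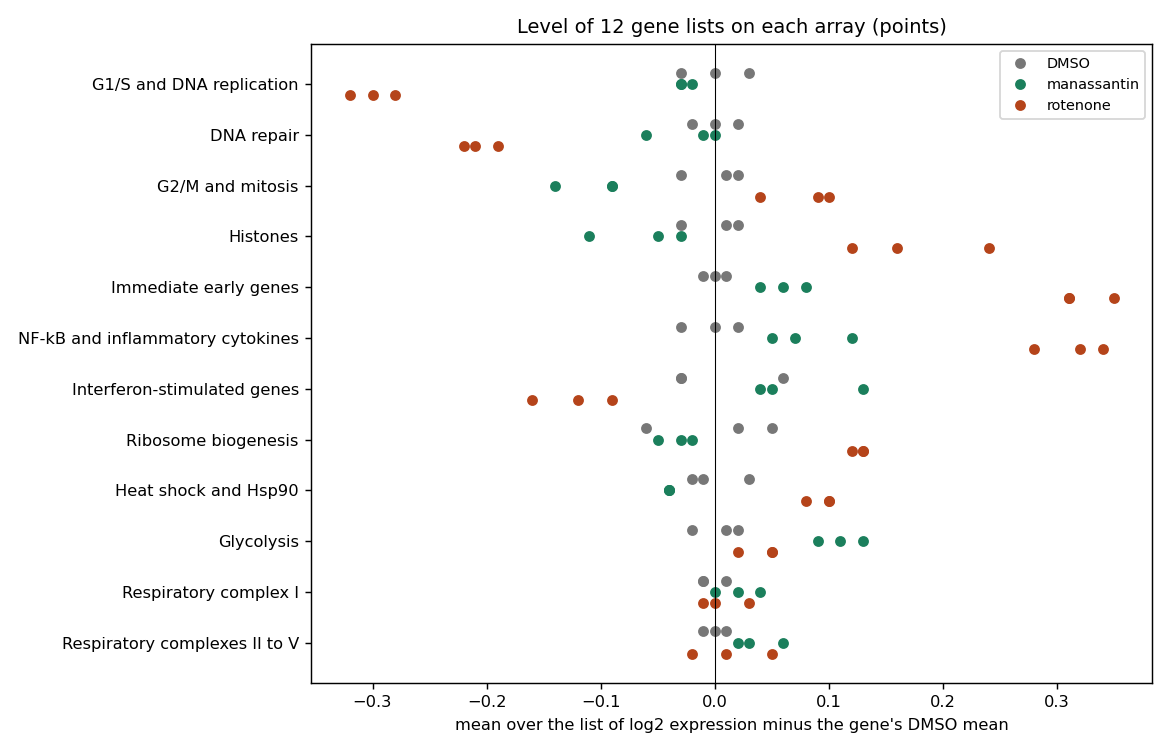
Each point is 1 array; the x axis is the mean over a list of log2 expression minus the gene's DMSO mean, for 12 lists on the y axis and the groups DMSO, manassantin and rotenone, with coinciding points overlaid. The replication list stands at -0.03, -0.02 and -0.03 with manassantin and -0.32, -0.30 and -0.28 with rotenone, and the mitotic list at -0.09, -0.14 and -0.09 against 0.09, 0.04 and 0.10.

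Tubulin genes were higher with manassantin for 4 of 16 members and lower for 0, against 3.06% and 2.64% of all genes, with a median of 0.11. With the folding genes 2, 2, 2, 1, 1 and 1 were higher on leaving out each manassantin and then each rotenone replicate. Tubulins are the subunits of microtubules, and rotenone is known to bind them, but a link of this binding to these levels was not tested. Set against the DMSO mean, tubulins and folding genes together averaged 0.07, 0.08 and 0.07 on the manassantin arrays. On the rotenone arrays they averaged 0.01, -0.02 and -0.02, and on the DMSO arrays 0.02, -0.01 and -0.01. TUBA1A stood at 10.55, 10.44 and 10.43 with manassantin, 9.98, 9.86 and 9.91 with rotenone and 10.22, 10.02 and 10.04 with DMSO, 0.56 ± 0.058 (SE, n = 3 arrays per group, limma adjusted p = 0.0051), so the manassantin arrays lay above both other groups. TUBB, the main beta tubulin, read 13.13, 13.14 and 13.08 against 12.90, 12.90 and 12.84 (0.23 ± 0.048), and both its other probe sets were called alike. TUBA4A was higher by 0.30 and the dim TUBB2B by 0.69, from 4.38, 4.37 and 4.37 with rotenone to 5.34, 4.97 and 4.89 with manassantin. Tubulin copies are similar enough for probe sets to read more than 1 of them. Of 13 genes of tubulin folding and binding 0 were called by limma (4 had an unadjusted p under 0.05), with a median of -0.0095.

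ID2, an inhibitor of helix-loop-helix factors, was lower with manassantin, at 6.46, 6.20 and 6.35 against 7.46, 7.41 and 7.41 with rotenone and 6.79, 6.81 and 6.71 with DMSO, -1.09 ± 0.071 (SE, n = 3 arrays per group, limma adjusted p = 0.00125). Its other probe set was called in the same direction, and DMSO lay between the compounds. Its relative ID1 ran the other way, at 10.85, 10.79 and 10.77 against 10.504, 10.56 and 10.47 (0.29 ± 0.051), as did BMP4, a ligand that induces ID genes (0.23), and SMAD6, an inhibitor of that pathway (0.43, adjusted p = 0.572 for the mean of its 4 probe sets). Of 14 genes of TGF-beta signalling 0 were called by limma (2 had an unadjusted p under 0.05), with a median of -0.053. HAS2, a hyaluronan synthase, was lower at 5.17, 5.18 and 5.51 against 6.06, 6.29 and 6.24 (-0.91 ± 0.11, dim), and BCL2L11, the pro-apoptotic protein BIM, at 5.02, 5.001 and 5.14 against 5.63, 5.76 and 5.55 (-0.59 ± 0.07, dim). MTCL2, a microtubule cross-linking protein, read 6.10, 5.93 and 6.11 with manassantin and 6.93, 6.83 and 6.92 with rotenone (-0.85 ± 0.066), although its other probe set was not called.

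In lipid synthesis 5 of 34 genes were called higher and 1 lower, against 3.06% and 2.64% of all genes, with a median of 0.12. SREBF1, the factor that drives fatty acid genes, stood at 7.5004, 7.46 and 7.47 with manassantin, 6.98, 6.99 and 6.98 with rotenone and 7.54, 7.39 and 7.29 with DMSO, 0.49 ± 0.045 (SE, n = 3 arrays per group, limma adjusted p = 0.00367). SCD, the desaturase among its targets, read 9.91, 9.498 and 9.59 against 9.13, 8.77 and 8.95 (0.72 ± 0.13), but none of its other 3 probe sets was called and the mean of all 4 did not pass (adjusted p = 0.0791). ACACA, the carboxylase at the first step, was higher by 0.24, with the mean of its 2 probe sets at adjusted p = 0.871. The fatty acid synthase gene FASN stood at 0.14 (95% interval -0.02 to 0.30). The acyl-CoA synthetase ACSL1 was called the other way, at -0.26. ABCA1, a cholesterol exporter induced by liver X receptors, was higher by 0.55 ± 0.12 (adjusted p = 0.0596 for the mean of its probe sets), and INSIG2, which retains the sterol sensor, by 0.32. Without 1 array at a time 1 to 5 of the list were called higher, with 2, 5, 1, 3, 1 and 1 in the order of manassantin and then rotenone replicates.

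Hypoxia targets outside glycolysis were higher for 7 and lower for 2 of 38 genes, against 3.06% and 2.64% of all genes. Their median was 0.12, and 1, 4, 1, 1, 1 and 1 were higher on leaving out each manassantin and then each rotenone replicate. DDIT4, an mTORC1 inhibitor, stood at 10.52, 10.36 and 10.38 with manassantin, 9.90, 9.87 and 9.84 with rotenone and 10.37, 10.43 and 10.20 with DMSO, 0.55 ± 0.059 (SE, n = 3 arrays per group, limma adjusted p = 0.00526). The carbonic anhydrase gene CA12 was higher by 0.52 ± 0.10 and the collagen hydroxylase gene P4HA2 by 0.37. ADM, which encodes the vasodilator adrenomedullin, was lower at 9.58, 9.83 and 9.82 against 10.17, 10.20 and 10.30 (-0.48 ± 0.079), and CITED2 was at -0.30 (adjusted p = 0.0511 with the replicate block). VEGFA (0.17, adjusted p = 0.184), NDRG1 (0.28, 0.0928) and HIF1A (0.04, 0.711) were not called, though NDRG1 was with dim genes left out, the trended robust prior or the dap covariate. Of 21 glycolysis genes ENO2, enolase 2, was the 1 called (4.76%, against 5.7% of all genes), higher by 0.30 ± 0.05. Here 20 of 21 differences were positive with a median of 0.051.

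Respiratory genes gave hardly any calls, but with 5.7% of all genes called, few would fall in lists of this size at that share. Of 28 measured complex I subunits 0 were called by limma (0 had an unadjusted p under 0.05), and their differences ran from -0.027 to 0.152. The assembly factor gene NDUFAF4 was lower at -0.30. Of 35 genes of complexes II to V 0 were called by limma (2 had an unadjusted p under 0.05), with differences from -0.0712 to 0.168. TXNIP, which restrains glucose uptake, stood at 10.05, 9.98 and 9.97 with manassantin and 9.95, 10.01 and 9.95 with rotenone, both below DMSO (11.06, 10.94 and 10.91), and the difference between compounds was 0.03 (95% interval -0.08 to 0.15). CYP1A1, which the aryl hydrocarbon receptor induces, read 5.70, 6.09 and 6.03 against 6.03, 6.22 and 6.14, with DMSO at 5.16, 5.38 and 5.21 and a difference of -0.19 (-0.44 to 0.06). CYP1B1, another target, was higher with manassantin by 0.25 ± 0.05, at adjusted p = 0.0527 with the replicate block. MMP1, a collagenase, was at 8.29, 8.76 and 8.499 against 8.60, 8.87 and 8.82, with DMSO at 7.64, 7.68 and 7.87 and an interval of -0.54 to 0.04 for the difference. For TXNIP, CYP1A1 and MMP1 both compounds' arrays lay on the same side of the DMSO arrays.

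Heat shock and Hsp90 genes were lower with manassantin for 5 of 25 and higher for 0, against 2.64% and 3.06% of all genes. Their median was -0.13. HSPB8, a small heat shock protein, stood at 6.70, 6.55 and 6.71 against 7.09, 7.16 and 7.01 (-0.44 ± 0.066), the co-chaperone DNAJB4 differed by -0.25, and STIP1, which links Hsp70 to Hsp90, by -0.27 (adjusted p = 0.385 for the mean of its 2 probe sets). HSP90AA1 was at -0.05 (95% interval -0.18 to 0.08) and HSP90AB1 at -0.14 (-0.25 to -0.03, adjusted p = 0.122, called where dim genes were left out and with the trended robust prior). The list's count was 2, 1 and 1 without manassantin replicate 1, 2 or 3 and 0 without any 1 rotenone array. Of 12 genes of chaperone-mediated autophagy 0 were called by limma (3 had an unadjusted p under 0.05), with a median of 0.0031. LAMP2, its lysosomal receptor, read 10.31, 10.13 and 10.18 with manassantin and 10.25, 10.10 and 10.17 with rotenone, with an interval of -0.13 to 0.19. Of 27 macroautophagy genes 7.41% were called, against 5.7% of all genes. The cargo receptor SQSTM1 was lower (-0.34 ± 0.053) and GABARAP, an ATG8 protein, higher (0.29 ± 0.048).

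ATF4 targets and genes of amino acid synthesis and transport were higher for 6 and lower for 1 of 33. The shares of all genes were 3.06% and 2.64%. The list median was 0.072, and 3, 3, 1, 1, 2 and 1 were higher on leaving out each manassantin and then each rotenone replicate. SLC1A4, a neutral amino acid transporter, stood at 7.51, 7.44 and 7.37 with manassantin and 6.88, 6.69 and 6.81 with rotenone (0.64 ± 0.068, adjusted p = 0.00518), and the mitochondrial folate enzyme MTHFD2 at 10.15, 10.13 and 10.14 against 9.73, 9.85 and 9.80 (0.35 ± 0.05). CTH, an enzyme of cysteine synthesis, was higher by 0.38 and CHAC1, a glutathione-degrading enzyme, by 0.44; ATF3, the lower member, is described above. Interferon-stimulated genes had 5 of 32 higher and 0 lower, against the same shares, with a median of 0.17 and 30 of 32 differences positive. HERC5, the ligase for ISG15, read 8.64, 8.57 and 8.63 against 8.20, 8.06 and 8.24 (0.45 ± 0.061). Ribosome biogenesis genes had 6 of 21 lower and 0 higher, against 2.64% and 3.06% of all genes. The helicase DDX21 stood at -0.36 ± 0.051 and RRP12 at -0.33 ± 0.057. Counts of both lists fell to 0 or 1 without manassantin replicate 3 or any 1 rotenone array, and to 1 and 1 (interferon) and 2 and 3 (ribosome biogenesis) without manassantin replicate 1 or 2.

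Several other lists follow with their share of called genes, which was 5.7% over all genes. The p53 targets with CDK inhibitors had 1 higher, RBL1 above, and 2 lower of 29 (10.3%). CDKN1A, the inhibitor p21, stood at 0.03 (95% interval -0.10 to 0.17), CDKN1B at -0.07 (-0.24 to 0.09) and CCND1 at -0.04 (-0.15 to 0.07). Of 22 actin, SRF and YAP genes SRF was the 1 called (4.55%), at -0.24 (adjusted p = 0.0578 with the replicate block). Lysosomal genes had 2 of 33 called (6.06%), both lower, the sialidase NEU1 (-0.29) and a proton pump subunit gene, ATP6V1B2 (-0.38). Of 16 aminoacyl-tRNA synthetase genes and 19 endoplasmic reticulum chaperone genes 0 were called by limma (3 and 2 had an unadjusted p under 0.05), with medians of 0.022 and -0.015. Among 53 matrix and protease genes 5.66% were called, near the share of all genes. ITGB4, an integrin (adjusted p = 0.053 with the block), and MMP13, a collagenase (dim, 0.0578 with the block), were called higher and HAS2 lower. Of 20 NRF2 targets the aldo-keto reductases AKR1C2 (0.29) and AKR1C3 (0.25, adjusted p = 0.0515 with the block) were higher and the glutathione genes GSR (-0.32) and GCLC (-0.30) lower. Of 12 genes of heme synthesis and iron 16.7% were called, also in both directions. The transferrin receptor TFRC was lower at -0.25 and PPOX, an enzyme of heme synthesis, higher at 0.33 (adjusted p = 0.0563 with the block).

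**Figure D5:**
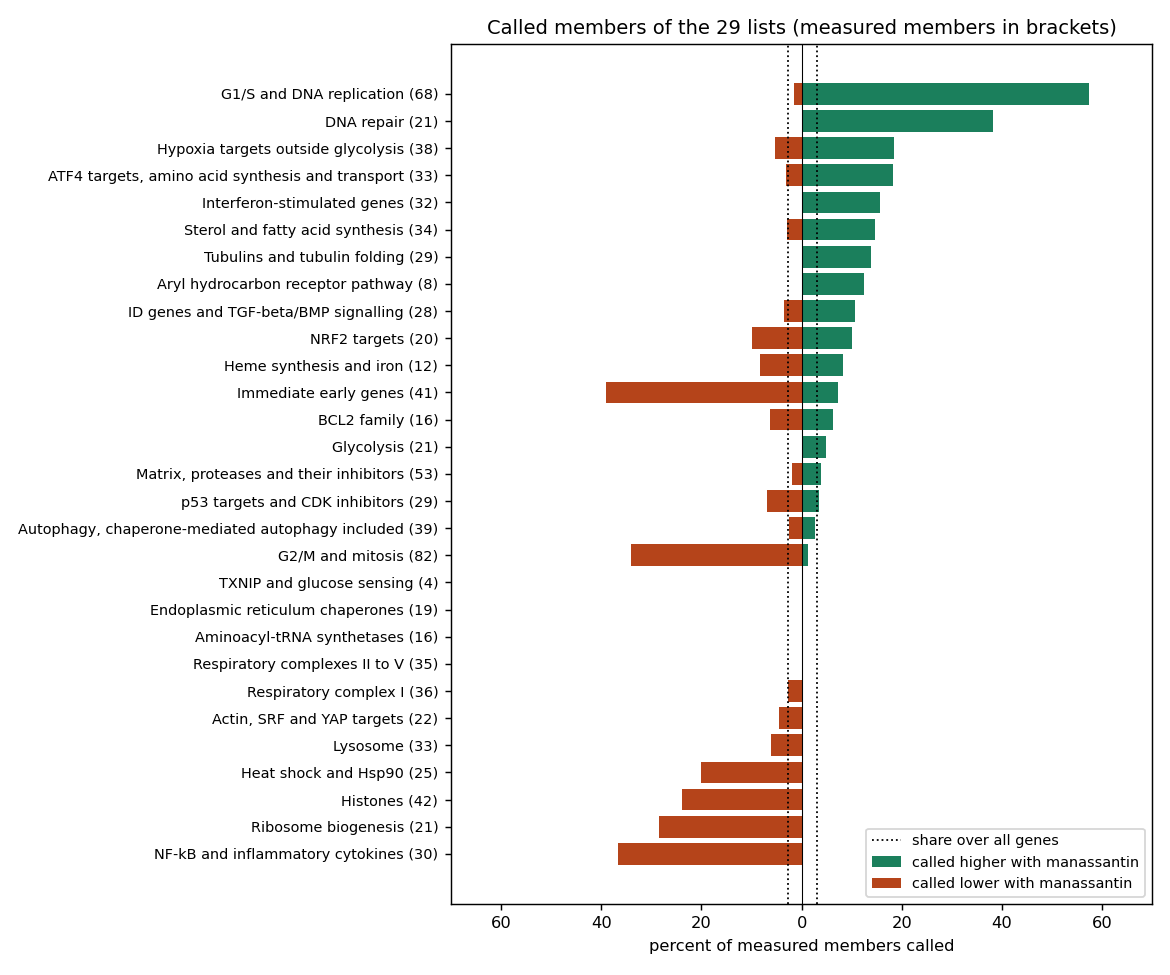
Bars give the percent of a list's measured members (number in brackets on the y axis) called higher (right) or lower (left) with manassantin, and dotted lines the shares over all genes, 3.06% and 2.64%. The replication list has 39 of 68 called higher, and the mitotic, immediate early, cytokine, ribosome biogenesis and histone lists extend to the left.

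Among the 12 called genes with the largest positive differences were several outside the cell cycle. NEDD9, a scaffold of focal adhesions, stood at 8.18, 7.91 and 8.07 with manassantin, 7.30, 7.38 and 7.36 with rotenone and 8.18, 8.08 and 7.98 with DMSO, 0.71 ± 0.075 (SE, n = 3 arrays per group, limma adjusted p = 0.00518). Its other probe set was not called. PLSCR4, a phospholipid scramblase, read 6.21, 6.10 and 6.36 against 5.68, 5.44 and 5.58 (0.66 ± 0.087). The dim genes PPFIBP2 (0.68 ± 0.10) and MILR1 (0.64 ± 0.058) were also among them. PPFIBP2 was lower than DMSO (6.53, 6.29 and 6.34) on the arrays of both compounds, at 6.17, 5.75 and 6.06 with manassantin and 5.33, 5.32 and 5.28 with rotenone.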

How the data were processed

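Per the labels, total RNA from cells treated for 24 h was extracted with a column kit, amplified, biotin-labelled and hybridized to GeneChip arrays. The deposited values were read as log2 intensities, already brought to a common scale by the authors (log2 1.708 to 13.67 on the 6 arrays, medians 5.974 to 5.995); how background was corrected, probes summarised and arrays normalized is not given in these labels. Of 22277 probe sets, 62 were controls, 19064 had 1 gene symbol, 1043 several and 2108 none. The brightest over the 6 arrays represented each gene, named through RefSeq records for 19052 probe sets. limma 3.58.1 (R 4.3.3) fitted group alone on the 6 arrays (4 residual and 3.47 prior degrees of freedom), with Benjamini-Hochberg adjustment over 11963 genes and a threshold of 0.05. Dim means under the 40th percentile of gene means, 5.755; no gene was left out. The precision is limited by the 3 arrays per group. Members and the 29 lists were chosen with earlier results of these data known. Lists share members. Named genes were the 12 called, non-overlapping genes with the largest difference in each direction, up to 6 called members per list subgroup, whole subgroups of at most 12, members called against their subgroup, and a fixed set; 1 of the 24 is not reported here. Sequences came from RefSeq (GRCh38.p14). Deviations from group means correlated across genes at 0.254, 0.361 and 0.106 for arrays of the same replicate number. For different numbers they ran from -0.333 to 0.109 (manassantin 1 with rotenone 3), so the last same-number pair did not stand apart. The numbers may therefore pair the arrays, but what they mark is not given. The main fit ignored any such pairing, and the replicate block took it into account as an alternative. The fit was tested on simulated data with 200 changed genes. It recovered 33.3%, 70.2% and 95.2% of them at log2 differences of 0.3, 0.5 and 1. Alternatives were all 12 arrays, the replicate block, 2 other scalings, a filter on dim genes, other uses of probe sets, another prior, array weights, 2 quality covariates and leaving out arrays. Figures used Python 3.11.15 and matplotlib 3.10.9.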

Additional observations from a re-analysis of the deposited data

How the results depend on the processing

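Of the 682 called genes 681 kept their direction in the fit on all 12 arrays, 679 with the mean of probe sets, and all of those present in each other alternative (601 where dim genes were dropped). Calls (higher and lower) rose to 1504 (896 and 608) when dim genes were dropped and to 1536 (881 and 655) under the trended robust prior. The 18S covariate gave 202 (92 and 110). Leaving out replicate 1 of both groups gave 46 (13 and 33). Calls higher numbered 561 in the fit on all 12 arrays, with 1013 calls in total. Leaving out 1 array gave 92 to 450 calls, 41 to 254 higher and 51 to 196 lower. The replicate block gave 685 calls (396 and 289), kept 525 of the 682 and is given beside the named genes whose call it ended; it ended no call of the 24 genes with the largest differences. Quantile normalization (648, with 318 and 330), median centring (671), the mean of probe sets (608), every probe set (679), array weights (839) and the dap covariate (759) stayed within 1.5 times the main count, but only 463 of the 682 genes were still called with the dap covariate and 472 with every probe set, which ended the calls of 19 and 22 genes named here, respectively. The mean of probe sets also ended the calls of RRM1, TYMS, SRF, CYP1B1, AKR1C2, RRP12 and ITGB4, and those given beside the other genes, 18 in all. Of 149 called genes named here the 18S covariate ended the calls of 62. Scaling moved the median of all genes to 0.00299 (quantile) and -0.00611 (median centring). Called results named in the text kept their sign in each alternative. Some list medians near 0 changed sign: that of endoplasmic reticulum chaperones, -0.015, was 0.00278 with array weights, 0.00108 with the 18S covariate, 0.00386 without manassantin replicate 1 and 0.0124 without replicate 1 of both groups. Signal over background was not available, so dim genes are limited by their level alone.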

Other observations

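Some called genes outside the lists, chosen after their values were seen, concern division. BORA, the cofactor with which AURKA activates PLK1, was lower at 7.86, 7.89 and 7.83 with manassantin against 8.56, 8.60 and 8.65 with rotenone (-0.74 ± 0.05), and DBF4B, a paralogue of DBF4, at -0.66 (dim). DTL (0.58), which targets the licensing factor CDT1 for destruction in S phase, and DSCC1 (0.57), of a clamp loader, were higher, though the mean of the 2 probe sets of DSCC1 was 0.27 (limma adjusted p = 0.0707). Of the small GTPases and kinases induced by stimuli RRAD (5.31, 5.25 and 5.20 against 6.06, 6.03 and 6.01, dim), GEM (-0.67) and SIK1 (-0.68) were lower, as was ODC1, the first enzyme of polyamine synthesis (-0.60). PTCH1 (0.48), the Hedgehog receptor, and GLI2 (0.49, dim), a factor of that pathway, were both higher, though the mean of the 3 probe sets of PTCH1 was 0.21 (limma adjusted p = 0.0865).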
